A study of Mus musculus with 2 samples.

Results

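Hepatoblasts, the epithelial progenitors of the fetal liver, were examined in 2 single-cell RNA sequencing libraries of mouse embryos. A cell counted as a hepatoblast when it held at least 1 UMI (unique molecular identifier, which marks 1 captured RNA molecule) of Hnf4a, a nuclear receptor at the centre of hepatic gene regulation, and at least 20 UMIs of Afp, Alb, Ttr and Apoa1 together. Afp encodes alpha-fetoprotein, Alb albumin, Ttr the thyroxine and retinol carrier transthyretin, and Apoa1 the main protein of high-density lipoprotein. Cells with any UMI of the kidney-lineage genes Pax2 and Pax8, or with more than 1 UMI of the red cell gene Klf1, were left out. A quality filter kept cells of 2000 UMIs or more that had 500 genes or more and no more than 10% of UMIs from mitochondrial genes. Of the 16572 cells it kept, 295 met the rule. They were 75 of 7665 cells at embryonic day E10.5 and 220 of 8907 cells at E11.5.

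Both libraries came from C57BL/6 embryos, for which the labels name no allele, treatment or agent, and there was 1 library at each stage. Each library was a pool that held the fetal liver together with the dorsal aorta and the tissue around it. The labels do not give the number of embryos or how much of each tissue entered a pool. With 1 library per stage no test between stages was possible. All intervals are at 95% and cover counting error only, not variation between embryos, and the values compare these libraries.

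The liver bud grows from the foregut endoderm, and its cells break through their basement membrane, spread into the surrounding mesenchyme and become hepatoblasts. Hepatoblasts give rise to hepatocytes, which make plasma proteins, lipoproteins and bile acids, and to the cells of the bile ducts. While they mature, blood stem cells and progenitors from the dorsal aorta and yolk sac settle among them, and hepatoblasts secrete factors that act on those cells.

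The 250 bases before the annotated start of 3 genes are shown: albumin and alpha-fetoprotein, which the rule used and which are neighbours on chromosome 5, and Hmgcs1, an early enzyme of cholesterol synthesis, as an example from that pathway. The sequences are from RefSeq on GRCm38.p6, at chr5:90460620-90460869 (Alb, plus strand), chr5:90490464-90490713 (Afp, plus strand) and chr13:119690101-119690350 (Hmgcs1, plus strand). Capitals mark matches to GTTAAT, to TTGCNNAA, a core of the C/EBP site, to CCAAT, and to TCACNCCAC, a sterol response element bound by SREBP, on either strand.
Alb: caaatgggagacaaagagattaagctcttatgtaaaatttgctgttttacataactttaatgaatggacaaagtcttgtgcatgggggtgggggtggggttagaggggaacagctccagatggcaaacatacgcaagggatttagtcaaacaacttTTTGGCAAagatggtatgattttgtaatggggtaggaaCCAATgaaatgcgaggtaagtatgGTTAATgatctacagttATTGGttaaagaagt
Afp: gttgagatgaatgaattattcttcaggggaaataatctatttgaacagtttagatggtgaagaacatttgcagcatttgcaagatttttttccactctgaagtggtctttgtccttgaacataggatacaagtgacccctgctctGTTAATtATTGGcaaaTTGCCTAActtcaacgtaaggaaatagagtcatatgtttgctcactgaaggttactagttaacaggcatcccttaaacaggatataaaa
Hmgcs1: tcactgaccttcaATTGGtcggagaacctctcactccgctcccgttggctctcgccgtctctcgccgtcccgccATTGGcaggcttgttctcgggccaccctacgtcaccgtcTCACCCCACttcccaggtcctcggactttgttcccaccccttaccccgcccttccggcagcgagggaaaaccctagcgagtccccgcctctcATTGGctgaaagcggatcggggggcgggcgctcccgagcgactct

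Distances are in bases before the RefSeq start, taken as the base after the window. The GENCODE starts lie further downstream, at chr5:90460897 (Alb), chr5:90490737 (Afp) and chr13:119690379 (Hmgcs1), so distances from those starts are longer. The Alb window held GTTAAT 32 bases before the RefSeq start, TTGCNNAA at 94 on the minus strand, and CCAAT at 56 and, on the minus strand, at 15. In the Afp window GTTAAT lay at 105, TTGCNNAA at 89 and CCAAT, on the minus strand, at 98. The Hmgcs1 window held no GTTAAT, 1 sterol element at 137 and CCAAT on the minus strand at 237, 176 and 45. Over the measured genes for plasma proteins, clotting, complement and lipoproteins, with Afp, Alb and Apoa1 added, 59 of 78 genes had a promoter in the table, with 69 promoters in all. GTTAAT was in 21 of these 69 windows (30.4%) and in 6.43% of all 32851 windows. TTGCNNAA was in 16 of 69 (23.2%) against 9.56% of all. CCAAT was in 14 of 18 windows of 15 cholesterol synthesis genes (77.8%) against 33.3% of the secreted protein windows and 33.8% of all. The sterol element was in 1 of the 18, that of Hmgcs1, and in 1.05% of all windows. These matches describe letters in the window and show no binding, and a window without a match says nothing of the factor.

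The E10.5 library held 151474708 UMIs in 10996 barcodes and the E11.5 library 159619785 in 12289, of which 69.7% and 72.5% passed the filter. Hepatoblasts were deeper than most cells, with a median of 37723 UMIs and 5875 genes at E10.5 and of 37230 UMIs and 5813 genes at E11.5, against 16967 and 14197 UMIs over all filtered cells. Their UMIs summed to 2998803 and 8936931. A rule that needs an Hnf4a UMI favours deep cells, and cells that lacked only this UMI had medians of 13934 and 14034 UMIs. The libraries shared 37 barcodes, none of them in a hepatoblast. Levels are given as CPM, the UMIs of a gene in every 1000000 UMIs of genes other than haemoglobin and mitochondrial genes, summed over the hepatoblasts of a library. A UMI stands for 1 molecule counted at its 3' end, so CPM was not divided by gene length.

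The name was checked against 14 hepatoblast markers that the rule did not use. Summed, they reached 4344 CPM at E10.5 and 4934 CPM at E11.5, against 900.2 and 761.9 CPM in all other filtered cells. Most of each sum was Dlk1, at 3086 and 3608 CPM in hepatoblasts and 701 and 592 CPM in other cells. At E10.5 all 14 were above the other cells, and at E11.5 this held for 13, the exception being Epcam. At E11.5 12 were at least 2-fold above, and Tbx3 was 1.67-fold above (74.3 against 44.4 CPM). Foxa3, a forkhead factor of the liver, stood at 89.2 and 105 CPM against 0.734 and 1.48 in other cells. Cebpa stood at 44.9 and 74.6 CPM against 0.578 and 2.29. Prox1, which the liver bud needs for its cells to migrate, was at 173 and 161 CPM against 7.15 and 10.0.

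The 12 erythroid markers, mostly globins, summed to 308 and 447 CPM, against 25394 and 25121 CPM in other cells. The limit on Klf1 had already set aside cells with red cell RNA, so these low sums are partly set by the rule. At E11.5 the 7 cells that failed only this limit had 0.912% haemoglobin UMIs, against 0.0422% in hepatoblasts. All but 1 of the 8 macrophage markers stayed at or under 1 CPM at both stages, their sums were 0.691 and 7.83 CPM, and Ptprc, the common leukocyte antigen, was at 0 at both. At E10.5 the 6 megakaryocyte markers gave 1 UMI in all, and at E11.5 they summed to 202 CPM, with 1623 UMIs in a single cell and 3 or more UMIs in 5 of 220 cells. Pf4, a platelet chemokine, went from 1 UMI at E10.5 to 1298 UMIs and had the widest ratio of all measured genes (8.78). The 8 endothelial markers summed to 3.46 and 5.26 CPM against 197 and 182. Markers of yolk sac endoderm, which makes many of the same plasma proteins, summed to 4.15 and 5.96 CPM against 22.1 and 27.0. Of these 6 genes 2, Amn and Cubn, lay above other cells at each stage. Amn was at 0.691 and 4.09 CPM (2 and 35 UMIs) against 0.119 and 0.446 CPM, and Cubn gave 1 and 4 UMIs. Apoa4 was at 0, but it gave at most 1 UMI in other cells too. The 8 stellate and mesenchymal markers summed to 323 and 401 CPM against 719 and 1371 CPM in other cells, and 69 of 75 and 213 of 220 hepatoblasts held 3 or more of their UMIs. Most of these came from Reln, a secreted matrix protein, at 256 and 313 CPM against 4.89 and 12.8 CPM in other cells, and the other genes of that list lay below other cells, with Lhx2 at 0. Mesothelial markers summed to 32.2 and 19.9 CPM against 137 and 207, nephric markers to 30.8 and 15.5 CPM against 115 and 86.8, with Pax2 and Pax8 at 0 by the rule, and neural crest markers to 22.8 and 15.3 CPM against 100.3 and 112. Blood progenitor markers (4.15 and 3.74 CPM) and markers of pancreas and gut (3.11 and 9.46 CPM) were lower still. The part of these cells in the results was not tested. Without hepatoblasts that held 3 or more UMIs of 8 genes of blood, endothelium and mesenchyme, 579 genes were at least 2-fold higher at E11.5 and 294 lower, against 617 and 315 with them.

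Hepatoblasts were 0.978% of filtered cells at E10.5 (0.770 to 1.23) and 2.47% at E11.5 (2.16 to 2.81), a share 2.52-fold higher at the later stage (1.93 to 3.33). A larger share of liver tissue in the pool and more hepatoblasts per liver cannot be told apart. With at least 2 UMIs of Hnf4a required, the shares were 0.705% and 1.95%. With no Hnf4a condition and at least 100 UMIs of the other marker genes, the E11.5 share was 3.05%.

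The rule cut the population at the Hnf4a condition more than at any other. Among cells that failed 1 condition only, 31 at E10.5 and 78 at E11.5 had no Hnf4a UMI, and 13 and 52 of these carried 100 or more UMIs of Afp, Alb, Ttr and Apoa1. Their median depth was 13934 and 14034 UMIs, less than that of the hepatoblasts, and they count among the other cells in all values here. Just inside the limit, 21 of 75 and 46 of 220 hepatoblasts held a single Hnf4a UMI. At the limit on the 4 secreted protein genes, the lowest hepatoblasts had 22 UMIs at the early and 259 at the late stage. Cells that failed this condition alone, 6 and 13, had at most 0 and 6. Klf1 alone set aside 7 cells at E11.5, with 2 to 18 UMIs of it.

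At E10.5, 9 cells had 22 to 63 UMIs of the 4 genes, and the next had 198. They were shallow, with a median of 5424 UMIs. In these 9 cells Epcam, an adhesion molecule of early endoderm, was at 549 CPM against 109 CPM in the other E10.5 hepatoblasts. Sox9, a factor of biliary and other progenitors, was at 371 CPM against 18.8, from 25 UMIs. Cldn6, a tight junction protein of embryonic epithelia, was at 148 CPM against 52.0. Afp was lower, at 4110 against 14860 CPM, but it is 1 of the 4 genes whose low counts set these cells apart. Prox1 (178 and 173 CPM) and Hhex (104 and 80.0 CPM) were close. The pancreatic gene Pdx1 gave 2 UMIs in these cells and none in the other 66. Without the 9 cells the stage ratio of Afp was 1.10 on the log2 scale, against 1.12 with them.

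The genes that chose the cells are described here without a reading, since every hepatoblast had to carry them. Afp was the most abundant transcript at both stages other than the genes left out of the total, at 14610 CPM at E10.5 and 31758 CPM at E11.5. Per cell it ranged from 626 to 26566 CPM with a median of 14251 at E10.5, and from 9009 to 63643 CPM with a median of 31826 at E11.5. The stages overlapped, but 219 of 220 cells at E11.5 lay above the E10.5 median. Alb differed more between the stages, at 545 and 7292 CPM (log2 ratio 3.74, 3.67 to 3.82). At E10.5 it ran from 0 to 2879 CPM per cell with a median of 453, and 8.0% of cells had none. At E11.5 it ran from 1033 to 21513 CPM with a median of 6762, so 195 of the 220 cells were above the highest E10.5 cell. Apoa1 was at 743 and 3758 CPM (2.34, 2.27 to 2.40) and Ttr at 1650 and 3647 CPM (1.14, 1.10 to 1.19). Hnf4a was at 68.8 and 81.2 CPM (0.24, 0.01 to 0.47), with medians of 74.3 and 75.2 CPM per cell. Its ratio was -0.09 when each cell's CPM was averaged, so no direction is read from it.

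**Figure D1:**
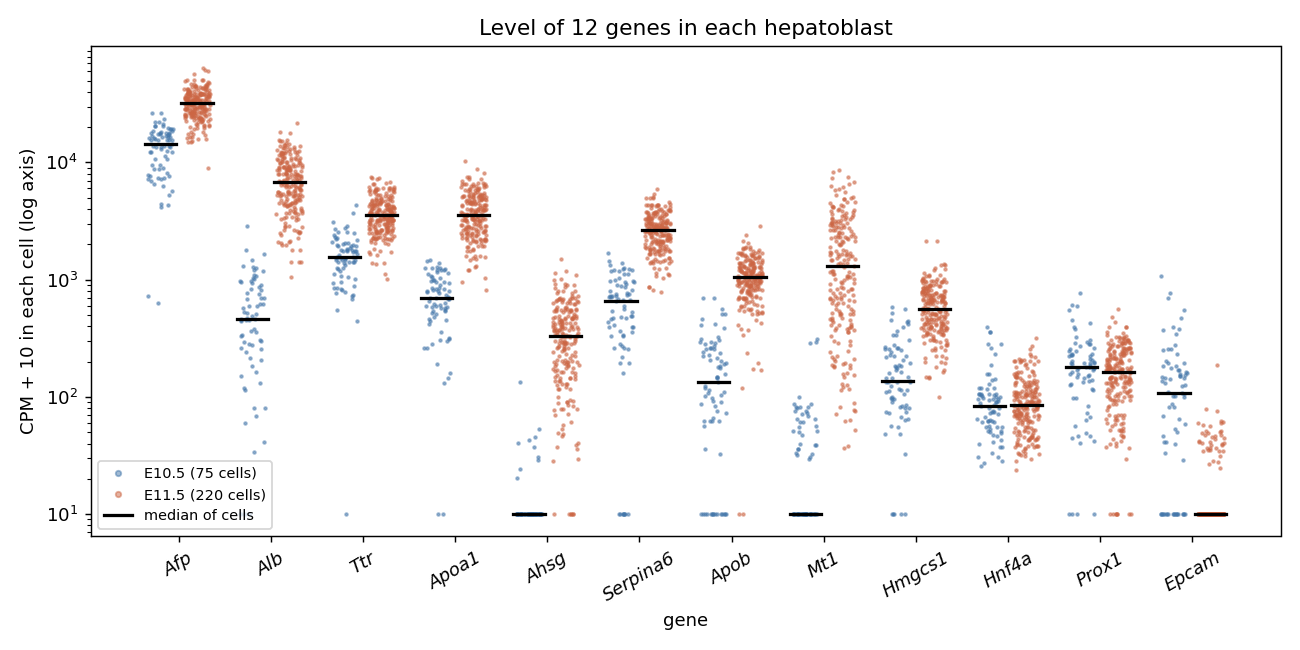
Level of 12 genes in each hepatoblast at E10.5 (blue, 75 cells) and E11.5 (orange, 220 cells), as CPM plus a small offset on a log axis, so the lowest row of points holds cells with no UMI. Black bars are medians of cells. Apoa1, Alb, Serpina6, Mt1, Ahsg and Apob nearly separate the stages, Hnf4a and Prox1 overlap fully, and Epcam is the gene that is more than 2-fold lower at E11.5.

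Over both libraries 9514 genes had at least 50 UMIs in hepatoblasts and are called measured here. Their median log2 ratio of E11.5 over E10.5 was -0.08. A gene was counted as higher or lower when its ratio was at least 2-fold, which held for 617 genes (6.49%) in the higher and 315 (3.31%) in the lower direction. At least 4-fold, the numbers were 186 and 43. Every count for a gene list below stands against these shares and this median. The lists were put together with results from these libraries known, and a gene with few UMIs is measured only if it is high at 1 stage, so the counts describe and do not support.

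**Figure D2:**
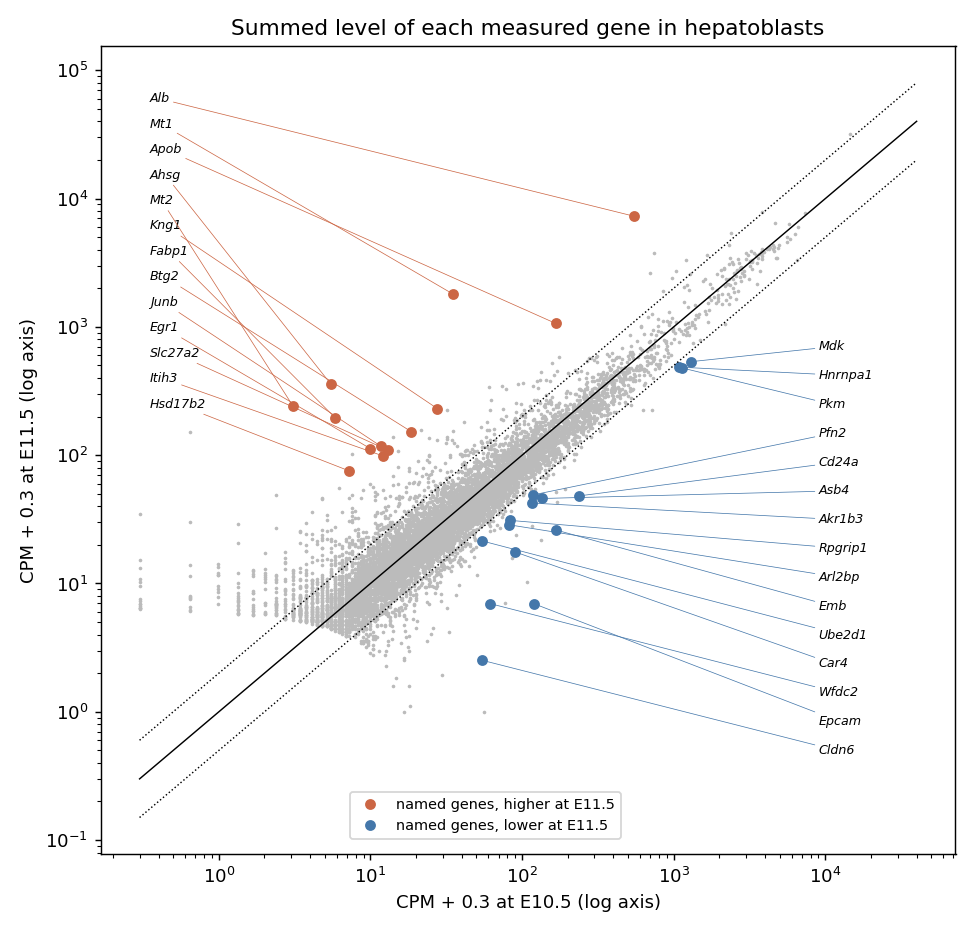
Summed level of each measured gene in hepatoblasts at E10.5 (horizontal) and E11.5 (vertical), in CPM plus a small offset on log axes. The solid line is equality and the dotted lines are 2-fold; the named genes are in colour, with Alb, Mt1 and Ahsg far above and Cldn6 and Epcam far below the lines.

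Among genes that at the stage where they were higher had at least 50 CPM and at least 0.5 times the level of other cells, the 15 with the highest lower bound of the ratio included Mt2, Mt1, Ahsg, Fabp1, Alb, Egr1, Junb, Hsd17b2, Kng1, Btg2, Slc27a2, Itih3 and Apob. They join metallothioneins, secreted proteins, enzymes and transporters of fat and steroid metabolism, and 3 immediate early genes. The 15 furthest the other way were Cldn6, Epcam, Wfdc2, Emb, Cd24a, Car4, Asb4, Arl2bp, Akr1b3, Mdk, Rpgrip1, Pkm, Hnrnpa1, Pfn2 and Ube2d1. Several of these are surface proteins of embryonic epithelia. Wfdc2, a secreted protease inhibitor of epithelia, was at 61.5 CPM at E10.5 and 6.66 CPM at E11.5 (9.24-fold lower), against 51.4 and 12.9 CPM in other cells. Emb, an immunoglobulin-like membrane protein, was 6.47-fold lower (167 and 25.8 CPM), against 31.7 and 25.6 CPM in other cells. Car4, a membrane carbonic anhydrase, was 5.20-fold lower (89.9 and 17.3 CPM), against 5.85 and 1.28 CPM in other cells. Arl2bp kept its direction but not its 2-fold difference when cells were thinned to 5000 UMIs (-0.70 on the log2 scale, against -1.52).

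**Figure D3:**
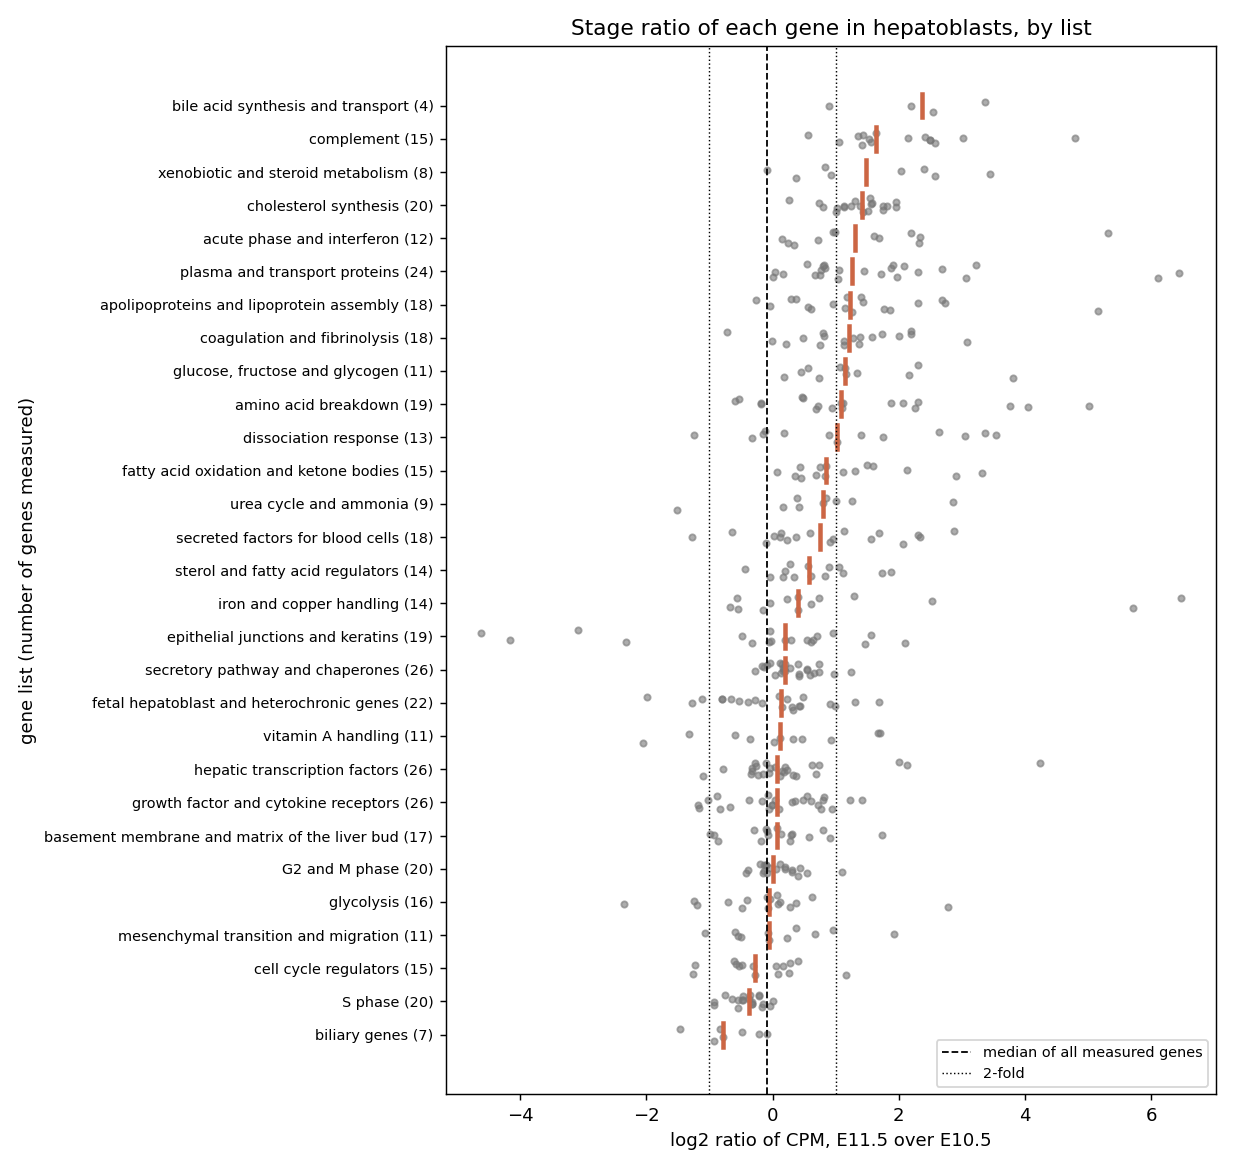
Log2 ratio of CPM, E11.5 over E10.5, of each measured gene (grey points) in 29 lists, with the list median (orange bar), the median of all measured genes (dashed line) and the 2-fold limits (dotted lines). Lists of secreted proteins, bile acid, complement and cholesterol genes lie to the right, and the S phase and biliary lists to the left.

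Of 35 plasma and transport proteins 24 were measured, 14 of them at least 2-fold higher at E11.5 and none lower (median 1.25). In all other filtered cells the same genes had a median of 2.01, with 19 at least 2-fold higher and 1 lower. Those other cells include the 31 and 78 cells that lacked only an Hnf4a UMI and carried hepatic UMIs. Their median therefore cannot show whether other cell types share this direction, and the same limit holds for hepatic genes in the lists below. The source of the UMIs of these genes in other cells was not tested. Ahsg, the mineral-binding protein fetuin-A, had 15 UMIs at E10.5 (5.19 CPM, 2.90 to 8.55) and 3055 at E11.5 (357 CPM, 344 to 370), a 68.8-fold difference. Only 10 of 75 cells at E10.5 held any Ahsg, up to 123 CPM, whereas 214 of 220 did at E11.5, with a median of 320 CPM. Apoh, a phospholipid-binding glycoprotein, gave 1 UMI and 255 UMIs (log2 ratio 6.43, 3.94 to 11.74). Pzp, a protease trap of the macroglobulin family, was at 3.80 and 35.6 CPM and Agt, the precursor of angiotensin, at 4.84 and 31.1 CPM.

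Carrier proteins that were already abundant at E10.5 differed less. Rbp4, which carries retinol in plasma, was at 3818 and 7802 CPM (1.03, 1.00 to 1.06), and its cells ranged from 626 to 6741 CPM at E10.5 and from 2812 to 15837 CPM at E11.5. Transferrin, Trf, was at 1210 and 3308 CPM (log2 ratio 1.45). Serpina6, which carries glucocorticoids, was at 695 and 2608 CPM (1.91, 1.84 to 1.97), with 188 of 220 cells above the highest E10.5 cell. The trypsin inhibitor genes of the Serpina1 family, nearly identical in sequence, were less uniform. Serpina1a and Serpina1b were 0.82 and 0.80 higher on the log2 scale, while Serpina1c (76.4 and 78.3 CPM) and Serpina1e (193 and 194 CPM) had ratios of 0.03 and 0.01. Serpina1b and Serpina1d also overlap in the annotation, so reads of this family may be split among its members. Afm, which like Afp and Alb belongs to the albumin family, was at 35.3 and 39.7 CPM (0.17, -0.15 to 0.51), while Gc, the vitamin D carrier of the same family, was at 5.53 and 27.3 CPM (2.30, 1.57 to 3.14).

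Of 23 genes for clotting factors and their inhibitors 18 were measured, 11 of them at least 2-fold higher at E11.5 and none lower (median 1.20). In other cells the median of these 18 was 2.32. The 3 fibrinogen chains, which assemble in equal numbers, were unequal at E10.5: Fgb was at 1161 CPM, Fgg at 511 CPM and Fga at 158 CPM. At E11.5 they were at 2049, 863 and 527 CPM, so Fga had the highest ratio (1.74, 1.60 to 1.88) and Fgg and Fgb the lower ones (0.75 and 0.82). Kng1, the kininogen that releases bradykinin, was at 27.3 and 230 CPM (3.08, 2.75 to 3.42). Prothrombin, F2, was at 130 and 388 CPM, plasminogen, Plg, at 161 and 418 CPM, and protein C, Proc, at 31.1 and 124 CPM. Serpinf2, the inhibitor of plasmin, was high at both stages (938 and 1084 CPM, 0.21). Several late factors were barely seen at E10.5 and were not measured: F9, F11 and F13b each gave 1 UMI there and 16, 39 and 37 UMIs at E11.5.

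Complement genes had the highest median among the larger secreted lists. Of 21 genes 15 were measured, 14 were at least 2-fold higher at E11.5 and none lower (median 1.64). In other cells the median of these 15 was 2.34. C3, the central component, was at 40.8 and 181 CPM (2.15, 1.88 to 2.43), and Cfi, the protease that inactivates it, at 60.2 and 339 CPM. Hc, which encodes C5, gave 3 and 245 UMIs (4.79, 3.22 to 7.07). Of the terminal components, C8a was at 15.2 and 44.9 CPM, C8b at 5.53 and 16.0 CPM and C8g at 10.0 and 56.7 CPM. Mbl1 and Masp2, of the lectin pathway, were at 7.26 and 38.5 CPM and at 3.11 and 25.2 CPM. C2 and Cfb overlap a joint transcript, Gm20547, in the annotation.

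The apolipoproteins differed one from another. Of 23 genes for apolipoproteins and lipoprotein assembly 18 were measured, 11 at least 2-fold higher at E11.5 and none lower (median 1.22). In other cells the median of these 18 was 1.59. Apob, the scaffold of very low-density lipoprotein, was at 166 and 1065 CPM (2.68, 2.55 to 2.82). Its cells ran from 0 to 693 CPM with a median of 123 at E10.5 and from 0 to 2836 CPM with a median of 1038 at E11.5, so 178 of 220 were above the highest E10.5 cell. Mttp, the transfer protein that loads lipid onto Apob, was at 97.2 and 119 CPM (0.29, 0.10 to 0.49). Apoa2 was at 2369 and 5368 CPM (1.18), Apoe at 1036 and 2737 CPM (1.40) and Apoc1 at 101 and 366 CPM (1.85). Apoc3, an inhibitor of triglyceride clearance, was at 7.26 and 6.07 CPM, and Apoa4 and Apoc2 gave too few UMIs. Fabp1, the fatty acid carrier of the hepatocyte cytosol, was at 5.53 and 196 CPM (5.15, 4.44 to 5.96), and 93.2% of the E11.5 cells held a UMI of it.

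All 20 genes of cholesterol synthesis were measured, 20 had a ratio above 0, 17 were at least 2-fold higher at E11.5 and none lower (median 1.41). The path runs from acetyl-CoA through mevalonate and squalene to cholesterol. At an early step, Hmgcs1 was at 175 and 586 CPM (1.74, 1.61 to 1.88). Per cell, Hmgcs1 ran from 0 to 572 CPM with a median of 128 at E10.5 and from 90.1 to 2108 CPM with a median of 556 at E11.5. Squalene synthase, Fdft1, was at 141 and 237 CPM (0.74) and squalene epoxidase, Sqle, at 104 and 210 CPM (1.01). Of the late steps, Cyp51 was at 118 and 348 CPM (1.56), Msmo1 at 133 and 447 CPM (1.75) and Ebp at 34.2 and 132 CPM (1.95).

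In all other filtered cells 19 of the 20 cholesterol genes were lower at E11.5, 8 of them at least 2-fold (median -0.88), and Hmgcs1 went from 270 to 145 CPM. Neural crest cells (299 and 205 cells) were chosen by at least 2 UMIs of Sox10, no Hnf4a and fewer than 20 UMIs of Afp, Alb, Ttr and Apoa1 together. In them none of the 20 cholesterol genes was higher at E11.5 (median -0.50). At E10.5 Hmgcs1, Fdps, Idi1 and Acat2 were thus lower in hepatoblasts than in the other cells or about equal, and at E11.5 they were higher: Fdps, for example, was at 169 against 237 CPM and then at 454 against 103 CPM. Among 14 regulators and fatty acid synthesis genes, all measured, 4 were at least 2-fold higher and none lower (median 0.59). Insig1, which holds back sterol regulatory factors, was at 40.8 and 88.3 CPM (1.11) and Scd1, a fatty acid desaturase, at 24.2 and 88.8 CPM (1.87). The factors Srebf2 (45.6 and 57.6 CPM) and Srebf1 (24.2 and 36.9 CPM) differed less.

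**Figure D4:**
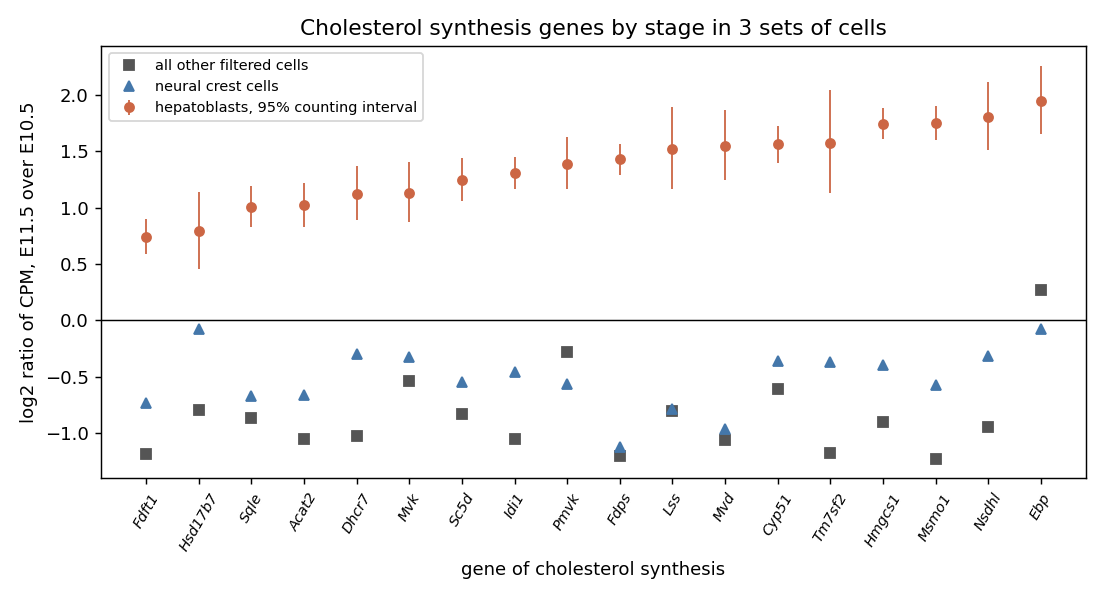
Log2 ratio of CPM, E11.5 over E10.5, of 18 cholesterol synthesis genes in hepatoblasts (orange, with 95% counting intervals), all other filtered cells (grey squares) and neural crest cells (blue triangles). Every hepatoblast value lies above 0, from Fdft1 at 0.74 to Ebp at 1.95, and all but 1 of the values of other cells lie below 0.

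Genes of bile acids, drugs and steroids gave few UMIs: 4 of 18 bile acid genes and 8 of 26 genes of xenobiotic and steroid metabolism were measured. Cyp7a1, the rate-limiting enzyme of bile acid synthesis, had no UMI at E10.5 and 15 at E11.5. Abcc2, an export pump of the bile canaliculus, was at 4.49 and 46.4 CPM (3.37, 2.58 to 4.29), and 3 of the 4 measured genes of its list were at least 2-fold higher. Hsd17b2, which inactivates sex steroids, was at 6.91 and 75.2 CPM (3.44, 2.80 to 4.16) and Ugt2b34, a glucuronosyl transferase, at 23.9 and 98.0 CPM (2.04). Gstm1 and Aldh2, of general detoxification, were at 311 and 589 CPM and at 158 and 282 CPM.

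In the urea cycle 9 of 11 genes were measured, 3 at least 2-fold higher and 1 lower (median 0.80). Otc, the mitochondrial carbamoyl transferase, was at 14.9 and 107 CPM (2.85, 2.41 to 3.33). Ass1 and Asl, the next enzymes, were at 139 and 241 CPM and at 62.2 and 111 CPM. Arg1, which completes the cycle, went the other way, at 19 and 6.66 CPM (-1.51, -2.07 to -0.95), and in other cells it was at 53.8 and 1.06 CPM. Cps1, which starts the cycle, had no UMI in any of the 295 cells and was not detectable at this depth. Glud1, which releases ammonia from glutamate, was at 1273 and 2566 CPM (1.01).

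Of 24 genes of amino acid breakdown 19 were measured, 10 at least 2-fold higher and none lower (median 1.08). Hgd and Fah, enzymes of tyrosine breakdown, were at 7.26 and 35.7 CPM and at 22.1 and 47.8 CPM. Tat, Tdo2 and Sds, enzymes typical of the liver around and after birth, were not measured. Genes of glucose, fructose and glycogen gave 11 of 17 measured and 7 at least 2-fold higher (median 1.14). Glycogen synthase Gys2 was at 10.4 and 51.0 CPM and glycogen phosphorylase Pygl at 17.6 and 79.1 CPM. G6pc and Pck1, which make the liver able to release glucose, were not measured. Fatty acid oxidation and ketone body genes gave 15 of 19 measured, 7 at least 2-fold higher and none lower (median 0.85), with Bdh1, an enzyme of ketone bodies, at 21.1 and 158 CPM (2.90).

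Glycolysis did not share this direction. Of 17 genes 16 were measured, 1 at least 2-fold higher and 3 lower (median -0.05). Gapdh was at 3287 and 3195 CPM and Ldha at 2501 and 2645 CPM. The lower ones were the glucose transporter Slc2a3 (31.5 and 6.19 CPM), the muscle-type phosphofructokinase Pfkm (12.8 and 5.61 CPM) and the pyruvate kinase Pkm (1132 and 478 CPM). The higher one was Pfkp, the platelet-type phosphofructokinase, with 3 and 61 UMIs (2.78, 1.17 to 5.10). Pklr, the pyruvate kinase of liver, which was counted in the glucose list, was at 7.95 and 16.6 CPM (1.06). Pkm was also lower in other cells (1373 and 755 CPM) and in neural crest cells (1627 and 829 CPM).

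Metallothioneins, small proteins that bind zinc and copper, stood first among the 15 higher genes named above, a ranking whose condition on other cells left out Pf4 (151.6 CPM against 413 CPM in other cells at E11.5). Mt1 gave 100 UMIs at E10.5 (34.6 CPM) and 15466 at E11.5 (1807 CPM), a 52.3-fold difference (log2 ratio 5.71, 5.42 to 6.01). Mt2 gave 8 and 2085 UMIs (2.77 and 244 CPM, 6.46, 5.48 to 7.67). At E10.5 a Mt1 UMI was found in 46.7% of cells and the highest cell had 301 CPM, whereas at E11.5 every cell held Mt1, from 26.9 to 8579 CPM with a median of 1297. In other cells Mt1 was at 206 and 424 CPM and in neural crest cells at 58.1 and 50.1 CPM. Thinned to 5000 UMIs each, 9.86% of 71 and 87.3% of 220 hepatoblasts had a Mt1 UMI, against 11.4% and 17.6% of neural crest cells. Across the 220 cells at E11.5 Mt1 and Mt2 went together (Spearman's rho 0.89, a description of cells that share a library and a scaling).

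**Figure D5:**
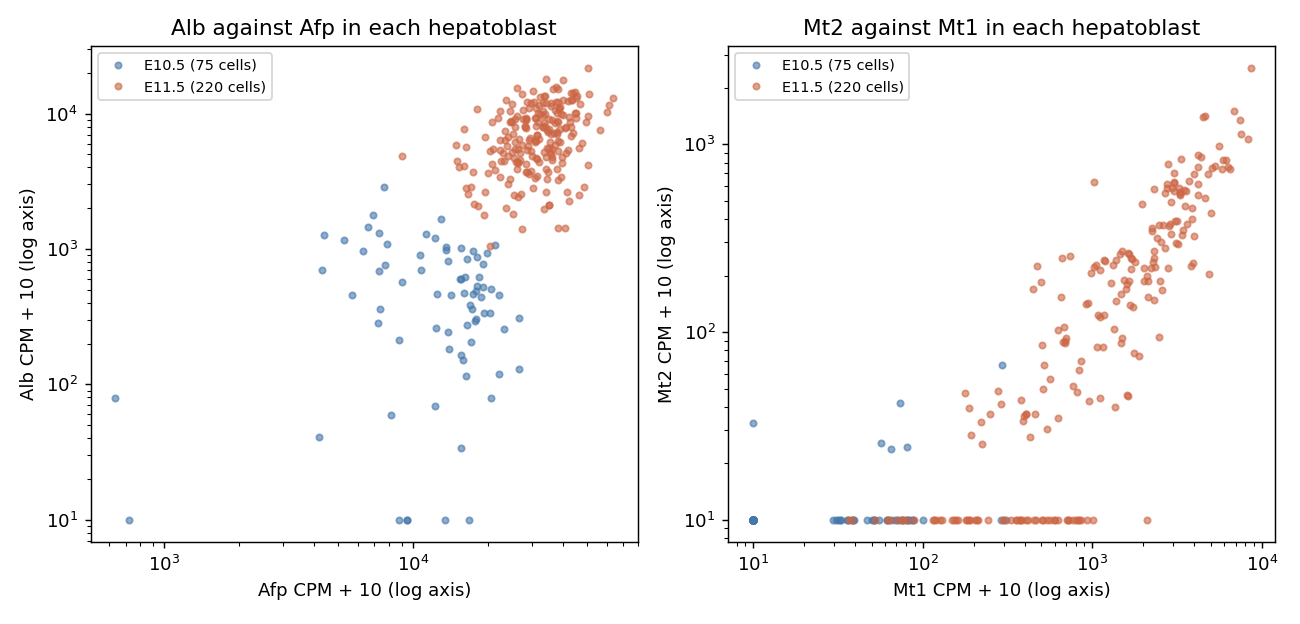
Alb against Afp (left) and Mt2 against Mt1 (right) in each hepatoblast at E10.5 (blue, 75 cells) and E11.5 (orange, 220 cells), in CPM plus a small offset on log axes, with cells without a UMI on the lowest row or column. The stages form separate clouds on the left, and on the right the E11.5 cells spread along a band from low to high in both genes.

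Iron genes in the same list differed less than the metallothioneins. With Mt1 and Mt2 among them, 14 of 20 genes were measured, 4 at least 2-fold higher and none lower (median 0.40). Tfr2, a sensor of transferrin, gave 3 and 51 UMIs (2.52, 0.89 to 4.85), while the ferritins Fth1 (2734 and 2454 CPM) and Ftl1 (2329 and 3066 CPM) and the receptor Tfrc (61.2 and 59.2 CPM) were close at both stages. Hamp, the hepcidin gene that governs iron uptake, was not measured. In vitamin A handling 11 of 17 genes were measured, 2 at least 2-fold higher and 2 lower (median 0.12). Crabp2, a carrier of retinoic acid, was at 29.0 and 7.01 CPM (-2.05) and Aldh1a2, which makes it, at 25.9 and 10.4 CPM (-1.32), while Dhrs3, which turns retinal back to retinol, was at 10.7 and 35 CPM (1.71).

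Transcription factors of the liver differed little. Of 30 factors 26 were measured, 3 at least 2-fold higher and 1 lower, and their median of 0.08 lay near that of all genes (-0.08). Hhex (80.6 and 83.2 CPM), Tbx3 (68.8 and 74.3 CPM), Nr5a2 (42.9 and 41.5 CPM), Onecut2 (203 and 173 CPM) and Gata6 (84.7 and 70.7 CPM) had ratios between -0.26 and 0.11. Thinned cells gave Prox1 in 52.1% and 50.9% and Hhex in 38.0% and 31.8%. The 3 higher factors belong to metabolic control. Ppara, the receptor that drives fatty acid oxidation, gave 2 and 112 UMIs (4.24, 2.36 to 7.31), Creb3l3, a membrane-bound factor of lipid and acute phase genes, was at 20.4 and 89.5 CPM (2.13, 1.75 to 2.54), and Nr1i2, a xenobiotic receptor, gave 6 and 71 UMIs. Foxa1, a pioneer factor of endoderm, was the lower one, at 38.4 and 18 CPM (-1.09, -1.45 to -0.73). Foxa2 was at 53.9 and 42.4 CPM and Foxa3 at 89.2 and 105 CPM.

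Of 26 genes for junctions and keratins 19 were measured, with 3 at least 2-fold higher and 4 lower (median 0.20). The 4 lower ones were Cldn6 (54.3 and 2.22 CPM, 24.5-fold lower), Epcam (119 and 6.66 CPM, 17.9-fold lower), Cldn7 (32.5 and 3.85 CPM) and Cd24a (239 and 47.9 CPM). Epcam was found in 74.7% of cells at E10.5, from 0 to 1067 CPM with a median of 98.4, and in 18.6% at E11.5, up to 178 CPM. In cells thinned to 5000 UMIs the shares were 40.8% and 2.73%, against 0.669% and 0.488% of neural crest cells. The 3 higher ones were Cldn1 (5.19 and 22.1 CPM), Gjb1, the main gap junction protein of hepatocytes (25.2 and 74.8 CPM), and Ocln (7.26 and 20.1 CPM). The keratins Krt8 (195 and 304 CPM) and Krt18 (357 and 411 CPM) and the cadherin Cdh1 (11.4 and 18.7 CPM) stayed above other cells at both stages.

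Few biliary genes were measured, 7 of 20, and all 7 had ratios below 0 (median -0.79, 1 of them at least 2-fold). Sox9 was at 27.0 and 9.81 CPM (log2 ratio -1.46), and 25 of its 78 UMIs at E10.5 came from the 9 cells with few marker UMIs. Krt19 and Spp1, markers of bile duct cells, gave at most 20 UMIs in a library. Thinning left 2 of the 7 genes measured, with a median of 0.15. Of 13 genes of mesenchymal transition and migration 11 were measured, 1 higher and 1 lower by 2-fold (median -0.06), the lower one being the actin bundler Fscn1 (243 and 116 CPM). In the list of basement membrane and matrix genes 17 of 20 were measured and 1 was higher, Nid1 (4.49 and 15 CPM), with a median of 0.07.

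Of 29 secreted factors that act on blood cells or vessels 18 were measured, 7 at least 2-fold higher and 1 lower (median 0.75). In other cells the median of these 18 was 0.66, with 7 at least 2-fold higher. Kitl, the ligand of the Kit receptor on stem cells, was at 168 and 183 CPM (0.12, -0.03 to 0.27), above the 50.7 and 44.3 CPM of other cells. Thpo, which acts on stem cells and megakaryocytes, was at 8.99 and 9.81 CPM against 0.200 and 0.263 in other cells. Dlk1, a surface and secreted marker of hepatoblasts, was at 3086 and 3608 CPM, and per cell it ran from 1183 to 5223 and from 1408 to 7528 CPM. Gdf15 gave 69 and 856 UMIs (2.07) and Lgals9 gave 5 and 109 UMIs (2.88). Igf2 was at 18.7 and 59.9 CPM (1.68), but it overlaps Gm49394 in the annotation, so its level is uncertain. Mdk, a heparin-binding growth factor, was 2.43-fold lower (1302 and 535 CPM), and was lower in other cells too (2004 and 1432 CPM). Cxcl12, which attracts stem cells, was at 55.3 and 83.6 CPM, below the 341 and 267 CPM of other cells, and no UMI of Epo was counted.

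On the receiving side 26 of 33 receptors were measured, 2 at least 2-fold higher and 3 lower (median 0.07). Met, the receptor of hepatocyte growth factor, was at 24.9 and 34.8 CPM (0.48, 0.11 to 0.88), against 3.45 and 2.78 CPM in other cells. Fgfr4, the hepatic fibroblast growth factor receptor, was at 18 and 19.3 CPM. Insr (11.1 and 25.9 CPM) and Tgfbr2 (3.46 and 9.23 CPM) were the higher ones, and Igf1r (20.4 and 8.99 CPM), Acvr2b (73.6 and 32.8 CPM) and Notch1 (19 and 9.34 CPM) the lower ones. Lgr5, a receptor for Wnt-enhancing ligands, was at 32.8 and 17.9 CPM against 2.11 CPM in other cells at E10.5.

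Fetal genes, including imprinted growth regulators, were spread on both sides. Of 23 genes 22 were measured, 2 at least 2-fold higher and 3 lower (median 0.13). H19 was at 974 and 2397 CPM (1.30, 1.24 to 1.36), with 219 of 220 cells above the E10.5 median. Meg3, from the same imprinted cluster as Dlk1, was at 3011 and 3774 CPM. Mest was at 171 and 43.2 CPM (-1.98, -2.18 to -1.79), and it was lower in other cells as well (1779 and 683 CPM). Lin28a, a blocker of let-7 maturation, was at 38.7 and 17.9 CPM (-1.12), while its relative Lin28b was at 33.2 and 35.7 CPM.

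All 20 genes of the S phase list were measured and 19 had ratios below 0 (median -0.36), none of them 2-fold, with Rrm2, a subunit of ribonucleotide reductase, at 266 and 140 CPM and Mcm2, of the replicative helicase, at 84.7 and 54.1 CPM. The same genes had a median of -0.15 in other cells and -0.12 in neural crest cells. For 20 genes of G2 and mitosis the median was 0.01, with 10 above and 10 below 0, and Mki67 alone was 2-fold higher, at 124 and 268 CPM (1.11), as it nearly was in other cells (168 and 330 CPM). Of 19 regulators 15 were measured, with Ccnd2 (219 and 91.9 CPM) and Mycn (52.2 and 22.2 CPM) lower and the inhibitor Cdkn1b (16.3 and 36.3 CPM) higher by 2-fold. No cell was assigned to a phase.

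The secretory machinery differed little beside its cargo. All 26 genes of protein entry, folding and export were measured, 1 was at least 2-fold higher (median 0.20). At each stage 24 of the 26 were above their level in other cells. Hspa5, the main chaperone of the endoplasmic reticulum, was at 1931 and 2577 CPM against 885 and 1110 CPM. The gene that passed 2-fold was Ddit3, a factor of the stress response (8.30 and 19.7 CPM).

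Of 15 genes that respond to enzymatic dissociation 13 were measured, 7 at least 2-fold higher and 1 lower (median 1.01). Egr1 was at 9.68 and 112 CPM (3.54), Junb at 11.4 and 117 CPM (3.36) and Btg2 at 18.3 and 152 CPM (3.05), and Dusp1 was at 14.2 and 5.96 CPM. The same 13 genes had a median of 0.11 in other cells and 0.10 in neural crest cells. Their part in the other stage ratios was not tested. Genes of the acute phase and interferon response gave 12 of 22 measured, 6 at least 2-fold higher and none lower (median 1.30), among them Crp (1 and 117 UMIs), Socs3 (5.19 and 26.0 CPM) and Lbp (10.4 and 47.7 CPM). In other cells the median of these 12 was 1.03. Saa1, Saa2 and the interferon-induced Isg15 and Ifit1 were not measured.

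The contrast with all other cells is a description, since the cells were chosen for genes of this kind. Genes with at least 50 CPM at both stages were ranked by the lower bound of the ratio to other cells, taking the lower of the 2 stages. First were Hnf4a (403-fold and 142-fold), Apob (273-fold and 94.8-fold) and Itih2 (233-fold and 83.8-fold). Cyp2c68, of the drug-metabolising Cyp2c family, was at 53.2 and 165 CPM (141-fold and 88.7-fold). At E11.5 the folds of most of the first 15 genes lay between 70 and 90. Afp was at 61.7 CPM in other cells at E10.5 and at 395 CPM at E11.5, and in neural crest cells at 9.26 and 36.7 CPM. The limit on UMIs of Afp, Alb, Ttr and Apoa1 in the choice of neural crest cells caps their Afp. The other cells include the 78 cells that lacked only an Hnf4a UMI.

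Cells of 1 stage varied among themselves. At E11.5 the cells were put in 3 parts of 74, 73 and 73 by their share of Alb, with Alb at 3524, 6894 and 11570 CPM. Depth was alike (medians of 37475, 37596 and 36438 UMIs). From the lowest to the highest part Ahsg was at 201, 366 and 508 CPM, Fabp1 at 97.7, 212 and 281 CPM, Apoa1 at 2524, 3864 and 4920 CPM and Kng1 at 153, 226 and 314 CPM. Srebf1 was at 43.2, 37.2 and 30.2 CPM, and the S phase list summed to 1992, 1628 and 1580 CPM. Cholesterol synthesis summed to 3881, 4455 and 4986 CPM and the transcription factors to 1543, 1672 and 1568 CPM. Mest was at 70.8, 26.3 and 32.0 CPM and Sparc, a matrix protein, at 102, 44.2 and 50.8 CPM.

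At E10.5 the parts of 25 cells had Alb at 115, 468 and 1146 CPM and Apoa1 at 695, 785 and 745 CPM. Coagulation genes summed to 3350, 3716 and 4163 CPM and cholesterol genes to 1480, 1694 and 1947 CPM, and 4, 1 and 4 of the 9 cells with few marker UMIs fell in each part. Across the E10.5 cells Alb had a Spearman's rho of -0.13 with Afp and 0.15 with Apoa1 (75 cells). Across the E11.5 cells the values were 0.34 and 0.65 (220 cells), and 0.54 with Ahsg. Its rho with depth was -0.11 and -0.04. These values describe cells that share a library and a total.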

How the data were processed

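The deposited values are UMI counts per gene and cell, whole numbers that were not normalised. The libraries were made with the 10x 3' kit, version 3.1, per the labels' protocols, and the authors made the counts with Cell Ranger 5.0.0 on mm10, per the submitters' processing notes. The barcodes held at least 500 UMIs each, and no step for free RNA or doublets is given in the sources used here.

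Cells were filtered and chosen as the report states. The members and the 29 gene lists were chosen with earlier results of these data known. Counts were summed over the hepatoblasts of a library and divided by the total without haemoglobin and mitochondrial genes. Genes needed 50 UMIs over both libraries, and a count of 0 was read as up to 3 UMIs. Intervals are exact at 95% (Poisson for levels, Clopper-Pearson for shares, conditional binomial for ratios) and cover counting error only. Their script was tested on simulated data. No test was run, since each stage has 1 library.

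Named genes were the 8 genes of the rule, members of the lists (those past 2-fold and the most abundant), the 15 genes each way with the ratio bound farthest from 0 among those with at least 50 CPM and at least 0.5 of the level of other cells, the 10 most abundant and the 15 most above other cells. Pf4 was named after its values were seen. Doublets were kept. As an alternative, the cells with the highest 8% of Scrublet scores were left out. Other alternatives moved the cell filters, the rule, the scaling, the gene filter and the depth.

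Genes were matched to GENCODE mouse release 21 for overlaps. Overlapping genes share reads that counting cannot assign with certainty, and this touches Igf2, Trf, Fdps, Tm7sf2, C2, Cfb, Apoc4, Hpd, Onecut1, Pfkm, Ddit3, Manf, Serpina1b and Serpina1d. Promoters are RefSeq's on GRCm38.p6. The tools were Python 3.11.15, numpy 2.4.6, scipy 1.17.1, pandas 2.3.3, scanpy 1.11.5 and matplotlib 3.10.9. Some genes of the lists and rankings are not reported here.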

Additional observations from a re-analysis of the deposited data

How the results depend on the processing

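No paired analysis was possible because each stage has 1 library, and for the same reason no library could be left out. Of 122 values for the shares, the counts of genes and the 4 main list medians under the alternatives, 112 stayed near the reported value. Near meant inside the reported interval for shares and within the typical counting error of a list gene for medians. For counts it meant a fixed fold limit, wide enough that 876 higher genes counted as near 617. Some alternatives could move little: a limit of 10 UMIs of Afp, Alb, Ttr and Apoa1 together left all these values unchanged. Requiring 2 Hnf4a UMIs gave shares of 0.705% and 1.95%, and dropping the Hnf4a condition with at least 100 UMIs of the secreted protein genes gave 3.05% at E11.5. With the mean over cells of CPM 491 genes were at least 2-fold lower at E11.5. Cells thinned to 5000 UMIs gave 280 higher and 131 lower genes, with fewer genes measured, and a plasma protein median of 0.95. A filter of 20 UMIs gave 876 higher and 574 lower genes and left the 4 main list medians unchanged. One of 200 UMIs gave 303 higher and 109 lower.

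Of 578 values of 34 named genes, 577 kept their direction, the exception being Hnf4a with the mean over cells. For the 33 called genes 560 of 561 values stayed past 2-fold, the exception being Arl2bp in thinned cells. The 34 genes were genes of the rule or genes picked for a ratio bound far from 0 in these same cells. The alternatives also reused the same libraries and mostly the same cells. Both counts were therefore largely set by that choice and say little about genes with smaller ratios. For the other 25 lists 411 of 425 medians stayed near the reported one. The median of the transcription factors, 0.08 as reported, lay between -0.16 and 0.16, so its sign is not read: it was negative with 2 Hnf4a UMIs (-0.0035), without cells with UMIs of other types (-0.023), with the mean over cells (-0.14), in thinned cells (-0.16) and with the 200-UMI filter (-0.048). Without the 9 E10.5 cells of low marker counts, an alternative chosen after seeing the data, 629 genes were higher and 302 lower. Without the highest Scrublet scores, which took 12 of 75 and 19 of 220 hepatoblasts, the numbers were 580 and 321. Low genes are limited by 2892298 counted UMIs at E10.5 against 8561143 at E11.5.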
